A study of Homo sapiens with 4 samples.

Results

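The genes of glycolysis and of the pentose phosphate pathway were followed in K562 cells before and after treatment with hemin. They were chosen by name as a textbook list of 34 genes, by a rule that uses none of their measured values. However, this list and the further lists below were proposed with earlier results of these data known. Their shares of called genes are therefore a description and not a test of the lists. Each of the 34 was found by its symbol among the 61498 genes of the deposited tables. The list holds the glucose carriers SLC2A1 and SLC2A3, the enzymes that turn glucose into pyruvate and lactate, the lactate carriers SLC16A1 and SLC16A3, genes at the entry of pyruvate into mitochondria (PDHA1, PDK1 and PDK3), the glucose phosphate mutase PGM1, and 5 genes of the pentose phosphate pathway (PGLS, PGD, RPIA, TKT and TALDO1). K562 is a human erythroleukemia line that makes embryonic and fetal globins and can be pushed further toward the red cell fate by hemin. Poly(A) RNA was sequenced from untreated cells (2 libraries) and from cells kept with 50 µM hemin for 108 h (2 libraries). Both conditions used the same line and the same medium with fetal calf serum, the labels describe the control only as untreated, and they do not say whether replicates were separate cultures, so p-values measure only the spread between these libraries, which may be technical.

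Glycolysis breaks glucose down to pyruvate in the cytosol and yields ATP and NADH, and lactate dehydrogenase regenerates NAD+ by reducing pyruvate to lactate. The pentose phosphate pathway branches off after the first phosphorylation of glucose, and makes NADPH for reductive reactions and ribose phosphate for nucleotides. Mature red cells have no mitochondria and live on these pathways, with a red cell side branch in which BPGM makes the bisphosphoglycerate that lowers the oxygen affinity of hemoglobin. Most steps of glycolysis are served by several isoenzymes, some common to all tissues and others named for muscle or brain.

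The 4 libraries held between 7455447 and 8241534 estimated read counts, of which 12.8% to 13.6% came from the mitochondrial genome. The erythroid identity of the cells was plain, since all 10 erythroid markers on a fixed list were detected and their summed level was 5542 and 5775 TPM in untreated cells against 7113 and 6654 TPM in hemin-treated cells. TPM is a level per length, scaled so that all genes of a library sum to the same total. Markers of other blood cells and of fibroblasts were low, with summed levels of at most 6.99 TPM for 5 megakaryocyte genes, 1.64 TPM for 4 T cell genes, 1.62 TPM for 3 B cell genes, 0.74 TPM for 3 monocyte genes and 6.38 TPM for 4 fibroblast genes in any library. The megakaryocyte genes GP9, PF4 and PPBP and the T cell genes CD3E, CD2 and CD8A had 0 counts in all 4 libraries. The erythroid markers thus moved with the condition, and their part in the results below was not tested. In these bulk libraries, fewer cells of a type and less RNA per cell cannot be told apart.

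Of the 34 genes, 32 had enough counts to be tested for a difference between hemin-treated and untreated cells (edgeR's quasi-likelihood test, Benjamini-Hochberg adjustment over all 14458 tested genes, threshold 0.05). After hemin 6 of the 32 rose, which is 18.75%, beside 7.00% of all tested genes. In the other direction 4 of the 32 fell, which is 12.5%, beside 7.14% of all tested genes, and 14.1% of all tested genes passed in either direction. Those that rose were PGD, RPIA and TKT of the pentose phosphate pathway and GAPDH, ENO1 and PKM of lower glycolysis. Those that fell were ALDOC, ENO2, ENO3 and PFKFB4, which are isoenzymes whose families have a more abundant member in these cells. The changes were small, with none of the 32 reaching 2-fold in either direction, and the remaining 22 genes had log2 fold changes between -0.20 and 0.16. The list as a whole did not lean either way, with 15 positive and 17 negative log2 fold changes and a median of -0.01, against a median of -0.0048 over all tested genes. When libraries were scaled by their total count alone, 2 of the genes rose and 5 fell, and of all calls 34.93% were upward, against 49.49% with the main scaling. DESeq2 called 5 of the genes higher and 2 lower, beside 5.05% and 4.33% of all genes to which it gave an adjusted p (9.39% in either direction).

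**Figure D1:**
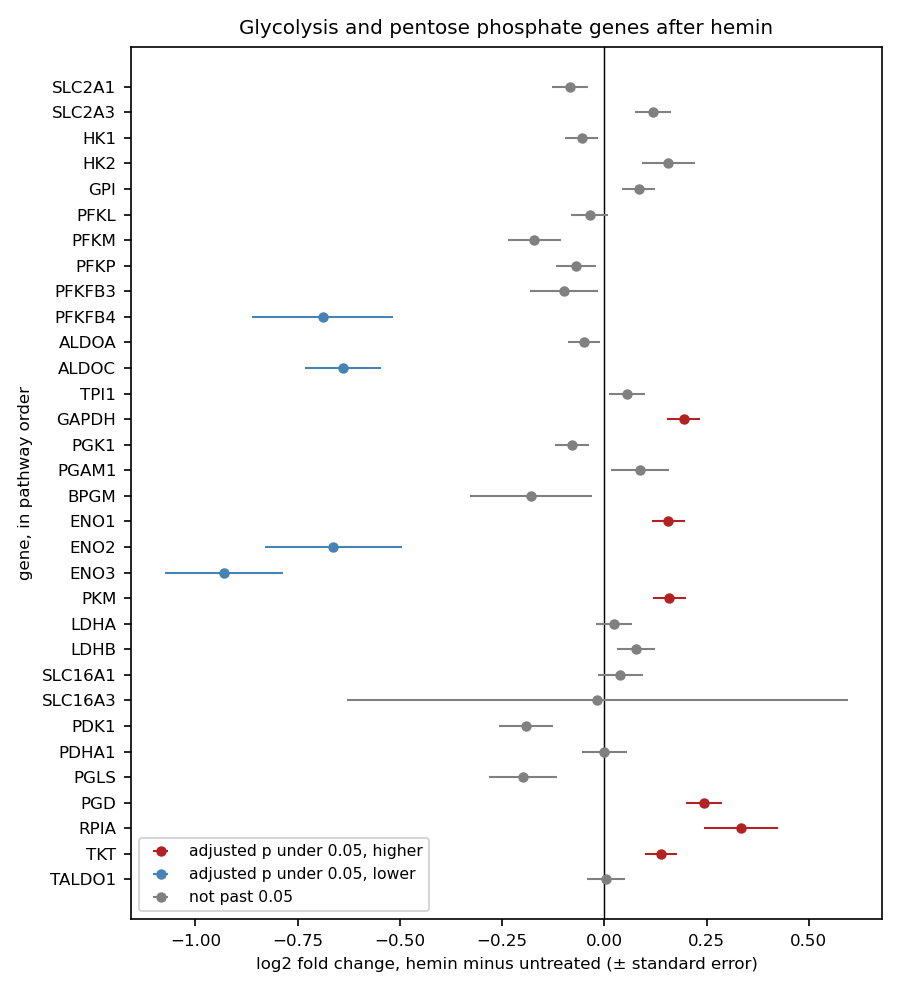
Log2 fold change after hemin (horizontal axis, hemin minus untreated, with standard error bars) of the 32 tested genes, in pathway order from glucose carriers at the top to the pentose phosphate genes at the bottom, with 2 libraries in each condition. Red points mark the 6 genes that rose, blue points the 4 that fell, and grey points the 22 that did not pass the threshold and lie between -0.20 and 0.16.

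Enolase was the step at which isoenzymes of one reaction moved in opposite directions. The 250 bases before a transcript start are therefore shown for the 3 enolase genes and for the other 2 genes that fell. They are also shown for PGD, the rising gene with the smallest adjusted p. ENO3 has a further window, chr17:4950869-4951118, which is not shown. The sequences are from RefSeq (GRCh38.p14), written 5′ to 3′ along the gene, and capitals mark each ACGTG or its reverse complement CACGT, the core letters of the hypoxia response element, which also lie inside the E-box CACGTG.
ENO1 promoter, chr1:8878687-8878936, minus strand: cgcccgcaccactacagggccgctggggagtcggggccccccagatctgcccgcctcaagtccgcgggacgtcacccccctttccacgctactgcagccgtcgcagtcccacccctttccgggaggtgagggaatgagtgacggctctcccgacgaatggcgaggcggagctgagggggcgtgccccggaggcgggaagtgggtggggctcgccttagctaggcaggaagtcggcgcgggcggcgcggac
ENO2 promoter, chr12:6914330-6914579, plus strand: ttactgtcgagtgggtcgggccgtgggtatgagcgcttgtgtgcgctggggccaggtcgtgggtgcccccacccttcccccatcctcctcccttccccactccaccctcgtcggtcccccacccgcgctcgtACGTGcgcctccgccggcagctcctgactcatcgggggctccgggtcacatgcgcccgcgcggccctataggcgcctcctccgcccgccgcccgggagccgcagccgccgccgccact
ENO3 promoter, chr17:4950302-4950551, plus strand: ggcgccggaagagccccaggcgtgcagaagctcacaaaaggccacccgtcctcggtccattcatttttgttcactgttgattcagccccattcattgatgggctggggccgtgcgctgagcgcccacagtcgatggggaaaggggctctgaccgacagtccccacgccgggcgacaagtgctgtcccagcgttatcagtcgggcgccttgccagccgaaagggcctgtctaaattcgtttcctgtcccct
ALDOC promoter, chr17:28576896-28577145, minus strand: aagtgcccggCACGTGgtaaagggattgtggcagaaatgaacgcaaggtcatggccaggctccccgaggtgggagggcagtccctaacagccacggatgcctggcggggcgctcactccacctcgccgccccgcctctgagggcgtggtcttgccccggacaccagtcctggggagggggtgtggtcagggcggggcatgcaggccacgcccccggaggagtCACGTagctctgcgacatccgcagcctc
PFKFB4 promoter, chr3:48556804-48557053, minus strand: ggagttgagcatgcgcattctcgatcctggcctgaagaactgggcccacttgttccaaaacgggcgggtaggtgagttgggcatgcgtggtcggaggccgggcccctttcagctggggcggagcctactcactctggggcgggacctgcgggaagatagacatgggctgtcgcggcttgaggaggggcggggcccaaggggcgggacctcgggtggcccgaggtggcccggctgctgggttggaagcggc
PGD promoter, chr1:10398814-10399063, plus strand: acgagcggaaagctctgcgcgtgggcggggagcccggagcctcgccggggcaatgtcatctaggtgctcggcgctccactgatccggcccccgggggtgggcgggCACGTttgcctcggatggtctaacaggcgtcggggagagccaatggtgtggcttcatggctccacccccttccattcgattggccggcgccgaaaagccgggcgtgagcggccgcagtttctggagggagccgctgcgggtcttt
ACGTG or CACGT was present in ENO2 (1 match), PGD (1 match) and ALDOC (3 matches, of which 2 are the strands of a single CACGTG). Neither was in the windows shown for ENO1, ENO3 and PFKFB4. The uncounted form GCGTG can be read in those windows and also in the windows shown for ALDOC and PGD. RefSeq windows were matched for 32 of the 34 genes, with 61 distinct windows in all. Counted on both strands in the 250 bases before each start, ACGTG was in 34.4% of these 61 windows and in 18.5% of all 35116 promoter windows over the same 250 bases, and CACGTG, each match of which holds ACGTG, was in 9.84% and 6.35%. The motif GGGCGG was in 60.7% of the windows of these genes and 42.6% of all windows, TGACNNNGC in 9.84% and 10.9%, and AGATAA in 6.56% and 9.17%. Several windows can belong to 1 gene, so these shares are a description of letters and were not tested.

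Of the 5 pentose phosphate genes, 3 rose and 2 did not pass the test. PGD (ENSG00000142657, GRCh38 chromosome 1, 10398592 to 10420511, plus strand) encodes 6-phosphogluconate dehydrogenase, which releases NADPH and carbon dioxide. It had 356 and 340.4 CPM (counts scaled to a common library total, with TMM factors) in the untreated libraries and 423 and 402 CPM in the hemin libraries. Both hemin libraries were above both untreated ones, and the difference was 1.18-fold (log2 fold change 0.24 ± 0.045 SE, adjusted p = 0.0081, edgeR). Leaving out untreated replicate 2 moved this to 0.0505, and leaving out any other library kept it under 0.05. RPIA (ENSG00000153574, chromosome 2, 88691673 to 88750929, plus strand), the isomerase that makes ribose 5-phosphate, had 25.8 and 28.4 CPM in untreated cells and 33.6 and 34.7 CPM after hemin. It rested on only 204 to 280 counts a library. The groups did not overlap and RPIA had the largest upward log2 fold change of the list, 0.33 ± 0.090 SE (adjusted p = 0.0381, edgeR). The RPIA call was lost without untreated replicate 1 (0.192), untreated replicate 2 (0.0661) or hemin replicate 2 (0.121), with scaling by total count alone (0.0552), and by DESeq2 (0.190).

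TKT (ENSG00000163931, chromosome 3, 53224712 to 53256052, minus strand) encodes transketolase, which exchanges carbon units between sugars of this pathway and glycolysis. Its level was 385 and 389 CPM in the untreated libraries and 428 and 424 CPM in the hemin libraries. The replicates lay close together and the groups were apart, with a log2 fold change of 0.14 ± 0.039 SE (adjusted p = 0.0425, edgeR). It was the weakest of the 10 calls, with an adjusted p of 0.0938 to 0.148 whichever library was left out and 0.113 with scaling by total count alone. TALDO1, the transaldolase that works with transketolase, had 157 and 154 CPM before and 159 and 153 CPM after hemin, so that its groups overlapped. PGLS, the lactonase just ahead of PGD, had 43.7 and 46.6 CPM before and 37.4 and 41.2 CPM after, a log2 fold change of -0.20 ± 0.083 SE with an adjusted p of 0.143 (edgeR).

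In lower glycolysis, the 3 genes that rose were among the 10 of the list with the highest TPM. GAPDH (ENSG00000111640, chromosome 12, 6534512 to 6538374, plus strand) encodes the dehydrogenase that makes NADH. It had the highest level of the 34 genes, 1587 ± 30.3 TPM before hemin and 1778 ± 32.1 TPM after it (SD, n = 2 each). Its CPM was 1350.1 and 1424 in untreated cells and 1559 and 1612 after hemin, a non-overlapping difference of 0.19 ± 0.041 SE on the log2 scale (adjusted p = 0.0148, edgeR). Leaving out untreated replicate 1 moved this to 0.0755. GAPDH is often used as a reference transcript that is taken not to vary, and in these libraries it was 1.14-fold higher after hemin.

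ENO1 (ENSG00000074800, chromosome 1, 8861000 to 8879190, minus strand), the widely expressed enolase, had 1059 and 1115 CPM in untreated cells and 1227 and 1196 CPM after hemin. Its groups were apart, with a log2 fold change of 0.16 ± 0.041 SE (adjusted p = 0.0329, edgeR). PKM (ENSG00000067225, chromosome 15, 72199029 to 72231819, minus strand), the pyruvate kinase of most tissues, had 389 and 383 CPM in untreated cells and 438 and 423 CPM after hemin. It was likewise non-overlapping, with a log2 fold change of 0.16 ± 0.040 SE (adjusted p = 0.0307, edgeR). The ENO1 call was lost without untreated replicate 1 (adjusted p = 0.152, edgeR) and with scaling by total count alone (0.0692). The PKM call was lost without untreated replicate 1 (0.0892), untreated replicate 2 (0.112) or hemin replicate 1 (0.0968), and with scaling by total count alone (0.0811).

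**Figure D2:**
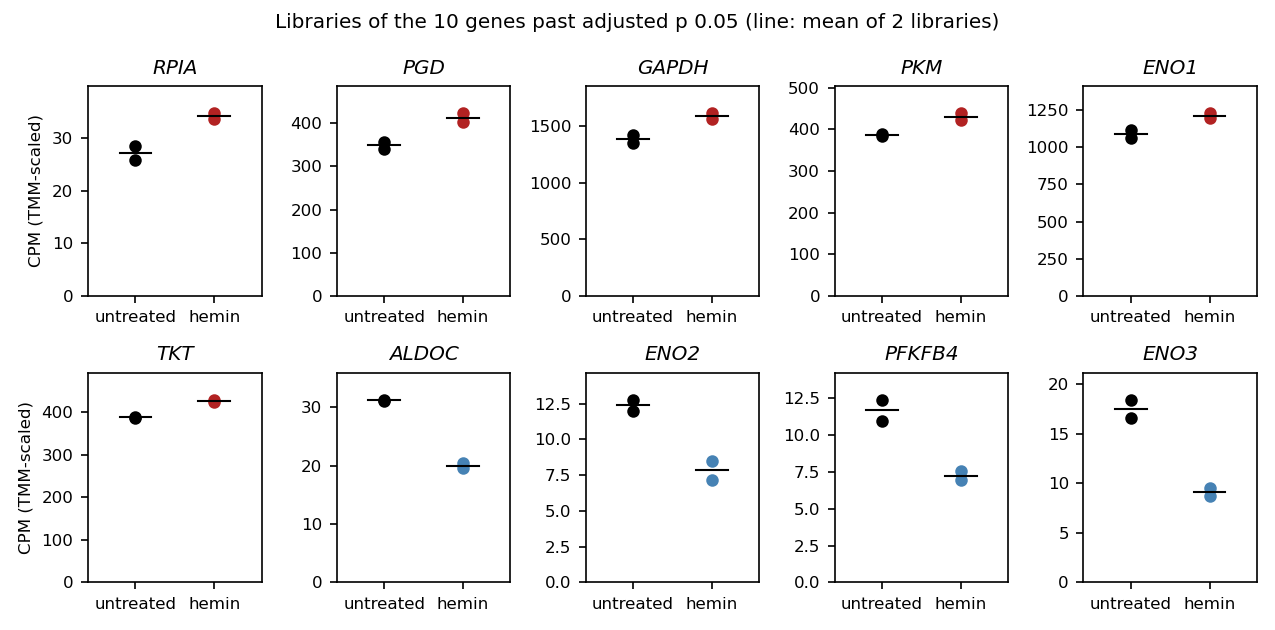
CPM (vertical axes, TMM-scaled, from 0) of the 10 genes that passed the threshold, with 1 point for each library and a line at the mean of the 2 libraries of a condition. In all 10 panels the hemin points lie wholly above or wholly below the untreated points, from the 6 rising genes (red) such as GAPDH at 1350.1 and 1424 against 1559 and 1612 CPM to the 4 falling ones (blue) such as ENO3 at 16.6 and 18.4 against 8.76 and 9.54 CPM.

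The 4 genes that fell had larger fold changes than the 6 that rose, and mean levels of at most 25.4 TPM. ALDOC (ENSG00000109107, chromosome 17, 28573115 to 28576948, minus strand), the aldolase isoenzyme best known from brain, had 246 and 234 counts in the untreated libraries and 145 and 165 in the hemin libraries. On the CPM scale these were 31.1 and 31.2 against 19.6 and 20.5. The untreated replicates were nearly equal and both lay above the hemin pair, and ALDOC was 1.56-fold lower after hemin (log2 fold change -0.64 ± 0.092 SE, adjusted p = 0.00297, edgeR). It stayed under 0.05 whichever library was left out (adjusted p from 0.00242 to 0.0217, edgeR). The gene RSKR overlaps ALDOC on the same strand, and had 212 to 258 counts a library and a log2 fold change of 0.01.

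ENO3 (ENSG00000108515, chromosome 17, 4948092 to 4957131, plus strand), the muscle enolase, had 131 and 138 counts in untreated cells and 65 and 77 after hemin. In CPM it had 16.6 and 18.4 against 8.76 and 9.54, the largest fall of the list at 1.91-fold (log2 fold change -0.93 ± 0.144 SE, adjusted p = 0.00396, edgeR). This call also held whichever library was left out (adjusted p from 0.00225 to 0.0297). On the scale per length the fall was smaller, from 27.0 ± 0.11 TPM to 18.3 ± 1.92 TPM (SD, n = 2 each), because the effective length that the authors' quantification gave to ENO3 was 860 and 948 bases in untreated libraries and 714 and 663 bases in hemin libraries. A fit to log2(TPM + 1) gave ENO3 -0.54 with an adjusted p of 0.123 (limma). ENO3 overlaps PFN1 on the opposite strand, which had 2378 to 2678 counts a library, and the counting is not stated to use strand, so reads of the 2 genes where they overlap may not be told apart.

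ENO2 (ENSG00000111674, chromosome 12, 6913745 to 6923698, plus strand), the neuronal enolase, had 101 and 90 counts in untreated cells and 63 and 58 after hemin, that is 12.8 and 12.0 CPM against 8.49 and 7.19 CPM. The groups did not overlap, and the difference was 1.58-fold (log2 fold change -0.66 ± 0.167 SE, adjusted p = 0.0295, edgeR). PFKFB4 (ENSG00000114268, chromosome 3, 48517684 to 48562015, minus strand) encodes a bifunctional enzyme that sets the level of fructose 2,6-bisphosphate, the activator of phosphofructokinase. It had 98 and 82 counts in untreated cells and 56 in each hemin library, or 12.4 and 10.9 CPM against 7.55 and 6.94 CPM. Its groups were apart by 1.61-fold (log2 fold change -0.69 ± 0.172 SE, adjusted p = 0.0280, edgeR). Both calls rest on low counts. The ENO2 call was lost without untreated replicate 1 (adjusted p = 0.127), untreated replicate 2 (0.0834) or hemin replicate 2 (0.115), and by DESeq2 (0.154). The PFKFB4 call was lost without the same libraries (0.141, 0.0617 and 0.0837) and by DESeq2 (0.151). LRRC23, which overlaps ENO2 on the same strand, had 30 and 28 counts before and 17 and 13 after hemin and was not called.

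Direction went with abundance within the list. Over the classes by mean TPM of all 4 libraries, which were chosen after the values were seen, the 16 genes of at least 100 TPM had 12 positive log2 fold changes, a median of 0.08, 5 calls upward and 0 downward. All tested genes of that level had a median of 0.04, with 21.3% called higher and 8.12% called lower. The 13 genes of 10 to 100 TPM had 3 positive log2 fold changes and a median of -0.10, with RPIA the single rise and ALDOC and ENO3 the falls. In that class all tested genes had a median of 0.01, with 8.84% called higher and 8.40% lower. Of the 5 genes under 10 TPM, 3 were tested and each was negative (median -0.66), against a median of -0.08 for all tested genes of that level, of which 1.44% were called higher and 5.32% lower. The share of rising calls among all genes also grew with level, so that the pattern of the list is read beside that of the whole table.

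**Figure D3:**
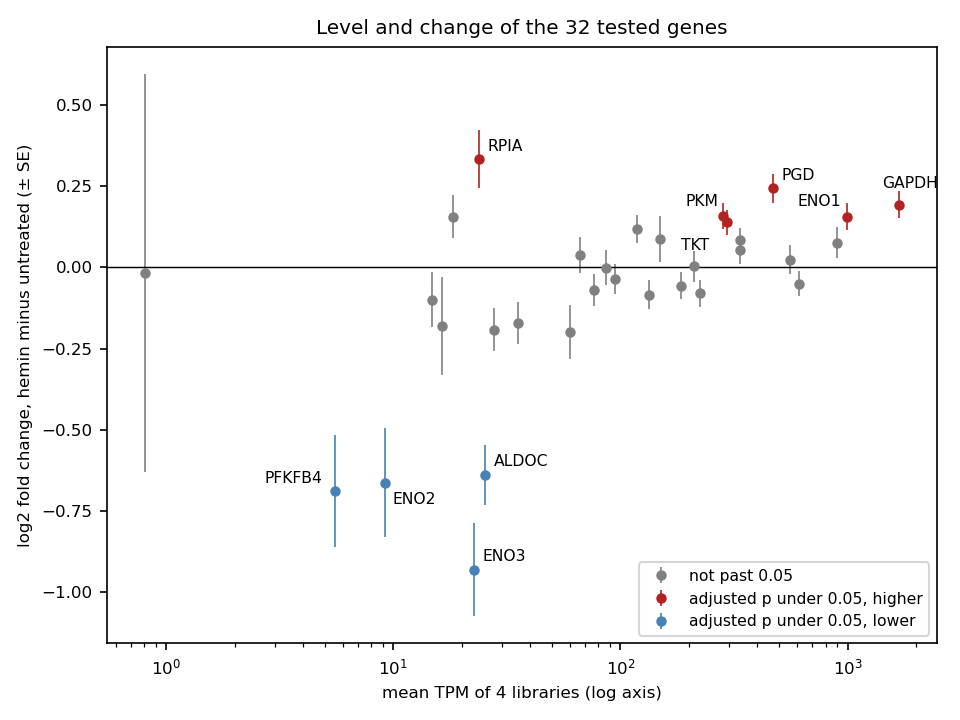
Log2 fold change after hemin (vertical axis, hemin minus untreated, bars are standard errors) against mean TPM of the 4 libraries (horizontal log axis) for the 32 tested genes. The 6 genes that rose (red) have mean levels of 23.9 TPM or more and the 4 that fell (blue) of 25.4 TPM or less, while SLC16A3, the point with the lowest level, has the widest error bar.

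The balance of isoenzymes was set out as the share of each in the summed TPM of its family, library by library. With 2 libraries against 2 no exact permutation test can go below p = 0.333, so these shares carry no test. Among the enolases, ENO1 held 95.8% and 96.4% in untreated and 97.8% and 97.6% in hemin-treated libraries. ENO2 held 1.43% and 0.976% before and 0.681% and 0.515% after, and ENO3 2.77% and 2.67% before and 1.55% and 1.88% after. The minor enolases therefore made a smaller part of the family in both hemin libraries. For ENO2, the untreated libraries differed by more from each other than untreated replicate 2 did from hemin replicate 1. The effective length given to ENO2, which enters its TPM, also differed. It was 1290 and 1692 bases in untreated and 1573 and 1820 bases in hemin libraries. Summed over the 3 genes, enolase mRNA was 991 ± 22.5 TPM before and 1066 ± 32.7 TPM after hemin (SD, n = 2 each).

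Aldolase differed from enolase in that its main form did not pass the test. ALDOA, the common aldolase, had 609 and 618 CPM before and 587 and 598 CPM after hemin (log2 fold change -0.05 ± 0.038 SE, adjusted p = 0.440, edgeR). ALDOC held 4.62% and 5.04% of the family in untreated and 2.93% and 3.32% in hemin-treated libraries. The summed aldolase level was 658 ± 5.42 TPM before and 612 ± 1.5 TPM after (SD, n = 2 each). For the bifunctional regulators, PFKFB4 held 35.8% and 25.6% before and 22.2% and 23.0% after, and the untreated libraries differed by more from each other than untreated replicate 2 did from the hemin pair. The effective length given to PFKFB4 also differed between the untreated libraries, at 2077 and 2668 bases, beside 2465 and 2448 bases after hemin. PFKFB3, the more abundant of these regulators, had 37.3 and 36.5 CPM before and 35.9 and 33.1 CPM after, with an adjusted p of 0.484 (edgeR).

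Hexokinase, which traps glucose in the cell as glucose 6-phosphate, was mainly HK1. HK1 had 453 and 468 CPM before and 448 and 438 CPM after hemin, and HK2, the form that is regulated in many tissues, had 67.4 and 72.5 CPM before and 80.2 and 75.7 CPM after. The HK2 groups did not overlap, but its log2 fold change of 0.16 ± 0.065 SE had an adjusted p of 0.146 (edgeR). HK2 held 8.17% and 8.52% of the pair in untreated and 9.83% and 9.56% in hemin-treated libraries. Phosphofructokinase, the main control point of the pathway, was spread over 3 genes. PFKL had 185 and 195 CPM before and 187 and 184 after, PFKP 139.7 and 136 before and 129 and 134 after, and PFKM 62.6 and 60.6 before and 54.3 and 55.0 after. PFKM, the muscle form, came nearest to a call, with a log2 fold change of -0.17 ± 0.065 SE and an adjusted p of 0.111 (edgeR), while PFKL held 44.4% to 46.8% of the family TPM in all libraries.

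Lactate dehydrogenase was abundant and was not called. LDHB, the form that favours pyruvate, had 677 and 714 CPM in untreated and 757 and 709.9 CPM in hemin-treated libraries, and LDHA, the form that favours lactate, had 424 and 451 CPM before and 451 and 439 after. The groups overlapped for both, and LDHB held 60.8% to 62.8% of the pair's TPM across all libraries. Of the lactate carriers, SLC16A1 had 167 and 151 CPM before and 163 and 163 after, and again the groups overlapped. SLC16A3 had only 13 and 8 counts before and 4 and 17 after, and its log2 fold change of -0.02 ± 0.612 SE has an error too wide to show anything but a large difference. The glucose carriers were SLC2A1 with 181 CPM in each untreated library and 173 and 168 after, and SLC2A3 with 228 and 229 before and 254 and 243 after. Their log2 fold changes were -0.08 ± 0.044 SE and 0.12 ± 0.043 SE, with adjusted p of 0.243 and 0.0993 (edgeR), and the shares of the pair in TPM overlapped between conditions.

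**Figure D4:**
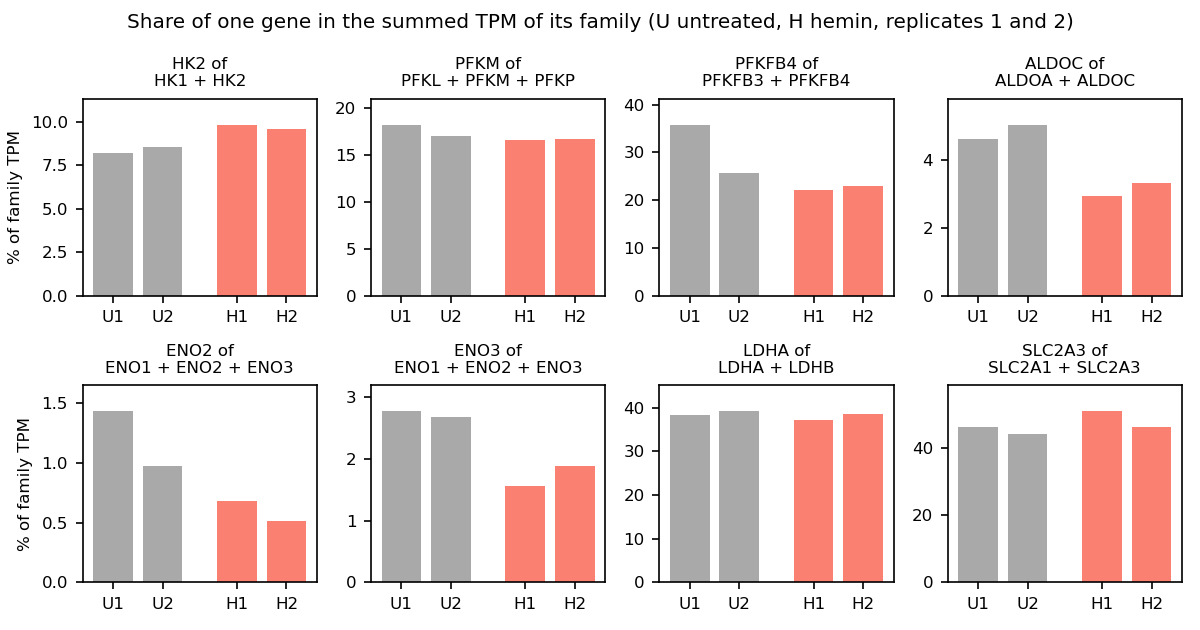
Share of one gene in the summed TPM of its family (vertical axes, percent, from 0) in untreated (grey, U1 and U2) and hemin-treated (red, H1 and H2) libraries, 1 bar a library. ENO2, ENO3, ALDOC and PFKFB4 are lower in both hemin libraries, HK2 is higher in both, PFKM is slightly lower in both (16.6% and 16.7% against 18.2% and 17.0%), and LDHA and SLC2A3 overlap.

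The remaining enzymes between glucose and pyruvate were not called. GPI, the isomerase after hexokinase, had a log2 fold change of 0.08 ± 0.039 SE (adjusted p = 0.196, edgeR) and TPI1, which interconverts the triose phosphates, of 0.05 ± 0.044 SE (0.468). PGK1, the first ATP-yielding kinase, had 237 and 244 CPM before and 228 in each hemin library (log2 fold change -0.08 ± 0.042 SE, adjusted p = 0.248). PGAM1, the mutase that follows it, had 176 and 189 CPM before and 209 and 179 after. BPGM, the enzyme of the red cell side branch, had 19.7 and 22.8 CPM before and 15.9 and 21.4 CPM after hemin. The BPGM groups overlapped and the fit gave -0.18 ± 0.150 SE with an adjusted p of 0.480 (edgeR), an error under which a moderate change would go undetected.

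At the entry of pyruvate into mitochondria, PDHA1, a subunit of pyruvate dehydrogenase, had 88.9 and 91.6 CPM before and 91.6 and 88.9 CPM after hemin. PDK1, a kinase that switches this enzyme off, had 61.8 and 59.7 CPM before and 52.9 and 53.5 after. The PDK1 groups were apart, but the log2 fold change of -0.19 ± 0.066 SE had an adjusted p of 0.0836 (edgeR), and it passed only with scaling by total count alone (0.0470). PDK3 had 2 or 3 counts and PGM1 had 1 or 2 counts in each library, which does not exceed the floor of 3 counts. Neither passed the count filter of the test (filterByExpr), and neither is given a fold. Of the 32 tested genes, the CPM of the groups did not overlap with hemin higher in 10, beside 28.1% of all tested genes. Hemin was lower without overlap in 13, beside 29.3%. An unadjusted p under 0.05 (edgeR) was found for 15 of the 32. The share of all tested genes under that unadjusted threshold was not computed. This count and those like it below are therefore not read as results about the lists.

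Summed over the 34 genes, the mRNA of this list was 7887 and 7946 TPM in untreated and 8283 and 8155 TPM in hemin-treated libraries. The groups did not overlap, and the sum made 0.792% ± 0.0042 of all TPM before and 0.822% ± 0.0090 after (SD, n = 2 each). GAPDH and ENO1 together with LDHB were the 3 most abundant, at mean levels of 1587, 952 and 883 TPM in untreated and 1778, 1042 and 915 TPM in hemin-treated cells, and the LDHB groups overlapped. Reads of these genes can be shared with processed pseudogenes, since 16 of the 34 have such copies by symbol. Of the 113 copies, 15 had more than 10 counts over the 4 libraries and 6 were tested, of which 0 were called by edgeR or by DESeq2 and 1 had an unadjusted p under 0.05. Summed over all copies of a gene, the pseudogene counts were at most 1.93% of the parent's count, the value for the 6 LDHA copies together.

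Genes around the 2 pathways were read from lists that do not include the 34, and their counts stand beside 7.00% of all tested genes called higher and 7.14% called lower. Among 12 further pentose phosphate and ribose genes, 10 were tested, 0 rose and 1 fell. This was TKTL1, a transketolase-like gene, with 120 and 118 counts in untreated cells and 58 and 47 after hemin. Its groups were far apart at a log2 fold change of -1.18 ± 0.176 SE (adjusted p = 0.0034, edgeR), opposite in sign to TKT, and it stayed under 0.05 whichever library was left out (up to 0.0249). Among 19 other genes of glycolysis, or related to it by name or side reaction, only 5 were tested and 0 were called by edgeR or DESeq2. The 2 at an unadjusted p under 0.05 went in opposite directions. TIGAR, with 5 to 22 counts a library, had a log2 fold change of -1.43 ± 0.45 SE (adjusted p = 0.0638, edgeR). PGAM5, a phosphatase despite its name, had 0.25 ± 0.074 SE (0.0515). Among 14 other sugar and lactate carriers 9 were tested and again 0 were called by either tool, with 2 at an unadjusted p under 0.05 and a median log2 fold change of -0.34.

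Of 11 further genes of pyruvate dehydrogenase and its control, 10 were tested, 2 rose and 1 fell, and 3 had an unadjusted p under 0.05. PDPR, the regulatory subunit of the phosphatase that switches the enzyme on, had 149 and 151 CPM before and 177 and 184 after hemin (log2 fold change 0.27 ± 0.046 SE, adjusted p = 0.00625, edgeR). DLAT, the acetyltransferase subunit, had 161 CPM in each untreated library and 177 and 186 after, a log2 fold change of 0.17 ± 0.047 SE (adjusted p = 0.0382, edgeR). The DLAT call held without hemin replicate 1 and was lost without each of the other libraries (adjusted p from 0.0282 to 0.212). PDK4, a kinase that switches the enzyme off, had 60 and 61 counts before and 26 and 35 after. Its log2 fold change of -0.996 ± 0.227 SE (adjusted p = 0.0202, edgeR) passed in 1 of the 4 fits that left out a library (adjusted p from 0.0196 to 0.0922) and did not pass by DESeq2 (which called 1 gene of this list higher and 0 lower).

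Of 20 genes of glycogen, hexosamine, glycerol and serine metabolism, 17 were tested, 0 rose and 4 fell, beside 7.00% and 7.14% of all tested genes. An unadjusted p under 0.05 was found for 8 of the 17, a count with no share of all tested genes beside it. Among them was GYG1, the glycogen primer, with a log2 fold change of 0.22 ± 0.099 SE (adjusted p = 0.167, edgeR), named here after its value was seen. GFPT1, which commits sugar to hexosamine synthesis, had 254.8 and 241 CPM before and 179 and 177 after hemin (log2 fold change -0.48 ± 0.046 SE, adjusted p = 4.3e-04, edgeR). PGM3, a mutase of the same branch, had 115 and 116 CPM before and 95.2 and 88.6 after (-0.33 ± 0.056 SE, 0.00561). PYGL, which releases glucose units from glycogen, had 61.1 and 61.4 CPM before and 43.8 and 45.9 after (-0.45 ± 0.069 SE, 0.00383). In each of these 3 the groups were well apart and the call held whichever library was left out. GPD1L, a glycerol phosphate dehydrogenase, had a log2 fold change of -0.31 ± 0.089 SE (adjusted p = 0.0449, edgeR) and was lost with any single library left out (0.126 to 0.145).

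Of 6 genes of the glucose-responsive arrestins and their transcription factors, all tested, 4 fell and 0 rose, beside 7.14% and 7.00% of all tested genes. MLXIPL, which encodes the carbohydrate response factor ChREBP, had 29.6 and 25.9 CPM before and 14.7 and 18.0 after hemin (log2 fold change -0.76 ± 0.126 SE, adjusted p = 0.00531, edgeR). MLXIP, which encodes the related MondoA, had 295 and 279 CPM before and 237 and 239 after (-0.27 ± 0.044 SE, 0.00494). TXNIP, a target of these factors that restrains glucose uptake, had 474 and 494 CPM before and 269 in each hemin library, and ARRDC4, a related arrestin, had 206 and 215 before and 107 and 105 after. The log2 fold changes of these arrestins were -0.85 ± 0.042 SE and -0.99 ± 0.049 SE. All 4 genes were apart between the groups and stayed called whichever library was left out. The remaining 2 did not pass, with overlapping groups and log2 fold changes of 0.07 ± 0.153 SE for the arrestin ARRDC3 and -0.02 ± 0.068 SE for MLX, the partner of both factors.

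Of 19 genes of the hypoxia response and its regulation outside the list, 17 were tested, with a median log2 fold change of -0.11. Of these 4 fell and 0 rose, beside 7.14% and 7.00% of all tested genes. An unadjusted p under 0.05, for which no share of all tested genes is given, was found for 8, in both directions. Among these, HIF1AN and EGLN2 were higher after hemin but not called (log2 fold changes 0.25 ± 0.074 SE and 0.20 ± 0.071 SE). EGLN3 and BNIP3 were lower and likewise not called (-0.79 ± 0.287 SE and -0.21 ± 0.081 SE). VEGFA, the vascular growth factor, had 197 and 201 CPM before and 146 and 152 after hemin, and DDIT4, an inhibitor of mTORC1 signalling, had 339.6 and 361 before and 232 and 228 after. NDRG1 had 16.7 and 17.4 CPM before and 9.44 and 8.68 after, and P4HA1, a prolyl hydroxylase subunit of collagen synthesis, had 61.7 and 60.8 before and 38.0 and 45.1 after. Their log2 fold changes were -0.42 ± 0.045 SE, -0.61 ± 0.046 SE, -0.91 ± 0.141 SE and -0.55 ± 0.087 SE, in that order, with adjusted p of 7.3e-04, 1.4e-04, 0.00395 and 0.0041 (edgeR).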

How the data were processed

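The submitters read poly(A) RNA libraries of K562 cells, 2 untreated and 2 hemin-treated, at 50 bases. The authors trimmed the reads (Trimmomatic 0.39) and quantified genes with RSEM 1.3.1 and STAR 2.7.5c on GRCh38 with the Ensembl 106 annotation, and SAMtools 1.15 and deepTools 3.5.1 are also named in the submitters' processing notes. The deposited tables hold expected counts from RSEM, in which reads mapping to several genes are divided between them, TPM, effective lengths in bases, and the posterior SD of each count, a score in reads that the authors obtained from RSEM. The deposited FPKM were not used.

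Expected counts were rounded and tested with edgeR 4.0.16 (TMM, filterByExpr, glmQLFit and glmQLFTest, condition as the only term). Fold changes are hemin over untreated. The test was tried on simulated data. Alternatives were other scalings and count filters, DESeq2 1.42.0, posterior mean counts, limma 3.58.1 on log2 TPM with 1 or 0.1 added, a replicate block and leaving out each library. Gene coordinates are from GENCODE 44 (61399 of 61498 genes matched). Intervals of counts and the floor of 3 counts cover counting error only.

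All 34 genes are accounted for. Values in every library were planned for each called gene and each family member, and from every other list the called genes were named, at most 4 in each direction. The rule for the 34 genes uses no measured value, but both these genes and the other lists were proposed with earlier results of these data known.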

Additional observations from a re-analysis of the deposited data

How the results depend on the processing

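PDK3 and PGM1 had too few counts to be tested, and SLC16A3, with 4 to 17 counts a library, had the largest standard error of the 32 tested genes (0.612). The 10 calls kept their direction in every alternative. With scaling by total count alone 2 of the genes were called higher, and of all genes 729 higher and 1358 lower. Without a count filter all genes gave 1464 higher. The limma fits on log2 TPM called 0 of the genes in either direction (11 at an unadjusted p under 0.05), and 14 higher and 33 lower (+ 1) or 15 and 34 (+ 0.1) of all genes. DESeq2 called 2 of the genes lower and 589 higher and 505 lower of all genes. The fit with replicate number as a block called 3 of the genes higher and 4 lower, losing PKM, ENO1 and TKT, and 855 higher and 886 lower of all genes. Same-numbered libraries did not deviate together (correlation 0.0047 over 14458 genes and -0.029 over 8993 genes of at least 100 counts). With 1 difference between replicates in each condition, this cannot show whether they had a culture or batch in common. Leaving out a library gave 1 to 4 of the genes higher and 2 to 4 lower, and 469 to 934 higher and 512 to 884 lower of all genes. The cause of these differences was not tested.

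With posterior mean TPM the shares of the main forms in untreated and hemin-treated cells were 91.2% and 90.1% for HK1, 42.2% and 42.5% for PFKL, 94.9% and 96.5% for ALDOA, 95.04% and 96.7% for ENO1, 94.5% and 94.2% for SLC16A1 and 98.5% and 98.3% for PDK1, and 72.4% after hemin for PFKFB3. The summed level was then 7288 and 7572 TPM, and 10418 and 10801 TPM with mitochondrial genes left out of the total. Log2 fold changes changed sign for 8 genes that were not called. LDHA was -0.014 with total-count scaling, -0.0031 in both limma fits and -0.020 to 0.072 with a library left out. SLC16A1 was -0.0003 with total-count scaling, -0.096 and -0.097 in the limma fits and -0.028 to 0.11 with a library left out. SLC16A3 was 0.13 and 0.27 in the limma fits, 0.17 with posterior mean counts and -1.31 to 0.63 with a library left out, and had too few counts for the minimum of 20. PDHA1 was 0.0039 with RLE scaling, 0.012 without a filter, 0.0040 by DESeq2 and -0.023 to 0.024 with a library left out. TALDO1 was -0.036 with total-count scaling and -0.019 to 0.032 with a library left out. With a library left out PFKL was -0.072 to 0.0034, PGAM1 -0.019 to 0.20 and BPGM -0.42 to 0.020.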
